A study of Mus musculus with 9 samples.

Results

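The 10 genes described here encode cyclins and kinases that drive the G1 phase of the cell cycle and the inhibitors that hold those kinases back, and they were followed in activated mouse CD8 T cells. They were chosen by name: the inhibitors Cdkn1a, Cdkn1b, Cdkn2c and Cdkn2d, the D-type cyclins Ccnd2 and Ccnd3, the E-type cyclins Ccne1 and Ccne2, and the kinases Cdk4 and Cdk6. All 10 of 10 were found among the 16344 genes of the deposited table, and all 10 were above the filter on low values. The study compared 3 groups of 3 libraries each. In the DAHB+O group, cells were given DAHB together with oligomycin, an inhibitor of the mitochondrial ATP synthase, at 10 nM; the labels do not repeat the DAHB dose for this group. In the DAHB group, cells were given 20 mM DAHB alone, a compound that the labels name only by this abbreviation. In the NaCl group, the control, cells were given 20 mM NaCl. What the groups share is wild-type mice as the source, CD8 T cells from spleen and lymph nodes, about 100000 cells per sample, stimulation through CD3 and CD28, overnight treatment, poly(A) RNA and 1 batch label. The sources used here do not give the age or number of the animals, and oligomycin without DAHB was not analysed here.

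A T cell leaves quiescence when signals from its antigen receptor and from cytokines raise D-type cyclins, which bind CDK4 and CDK6 and start to phosphorylate the retinoblastoma protein. Release of E2F transcription factors from that protein then raises E-type cyclins, which activate CDK2 and carry the cell into DNA synthesis. The INK4 inhibitors, which include the products of Cdkn2c (p18) and Cdkn2d (p19), bind CDK4 and CDK6 themselves. The CIP/KIP inhibitors, p21 from Cdkn1a and p27 from Cdkn1b, bind complexes of a cyclin and its kinase. In T cells p27 is best known as a mark of quiescence that falls after activation.

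The libraries held 28146402 to 39207045 reads, and 378 to 38179 reads stood behind each value of a member, so that counting alone gives a coefficient of variation of 0.512% to 5.14%. Whether replicates were separate mice or separate wells is not stated, so a p-value here measures the spread between libraries only, which may be technical. All 7 CD8 T cell markers were present, with a sum of 71650.3 to 76939 normalized counts in DAHB+O, 97175 to 101766.5 in DAHB and 85065 to 90530.5 in NaCl. The sum of 6 B cell markers was 2033 to 2203 normalized counts in DAHB+O, 2719 to 2924 in DAHB and 7607 to 8137 in NaCl, most of it Ighm. The sum of 6 dendritic cell markers was 7077 to 7526 in DAHB+O, 4928 to 5464 in DAHB and 2254 to 2359 in NaCl, most of it Cd74. Of these 6 genes, 5 were higher (Cd74, H2-Aa, Itgax, Zbtb46 and Flt3) and 1 lower (Xcr1) in DAHB against NaCl. In DAHB+O against DAHB, 2 were higher (Cd74 and Zbtb46), 3 lower (Xcr1, Itgax and H2-Aa) and 1 did not pass. Itgax averaged 167 normalized counts in DAHB+O, 296 in DAHB and 108 in NaCl, and Xcr1 averaged 3.95, 24.4 and 56.0. Other cells left few reads: 5 monocyte and macrophage markers summed to at most 272 normalized counts in a library, and 2 neutrophil markers to at most 98.0. CD4 T cell markers, 3 genes, summed to 3161 to 3305 in DAHB+O, 2195 to 2275 in DAHB and 1317 to 1469 in NaCl, most of it Zbtb7b. Cd4 itself averaged 231, 216 and 168 in these groups, and Foxp3 2.99, 4.97 and 6.60. The 3 natural killer markers summed to 1170.2 to 1351 in DAHB+O, 974 to 1511 in DAHB and 614 to 794 in NaCl, most of it Eomes. Klrb1c averaged 44.3, 55.2 and 64.3 in these groups, and Ncr1 3.36, 3.01 and 6.85. The table lists no gene at 0. The part of these other cells in the results below was not tested.

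DAHB against NaCl asks what the compound did to G1 genes. In DAHB, 4 members were higher (Ccnd2, Cdkn1a, Cdkn2d and Cdk6) and 5 were lower (Cdkn1b, Ccne2, Cdkn2c, Cdk4 and Ccne1), while Ccnd3 did not pass the test. Over all 14169 genes tested in this comparison 73.9% were called, 35.5% higher and 38.4% lower, so that a call was the usual outcome for a gene. The largest changes were a 2.15-fold higher level of Ccnd2 and levels of Cdkn1b and Ccne2 that were 2.71-fold and 2.68-fold lower. With quantile normalization in place of the size factors the split was 5 higher and 4 lower, since Ccnd3 gained a call and Ccne1 lost one. A call means an adjusted p under 0.05 from limma, with Benjamini-Hochberg adjustment over all tested genes.

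DAHB+O against DAHB asks what oligomycin changed in cells that also had DAHB. Here 3 members were higher (Ccne2, Cdkn2c and Ccne1), 5 were lower (Cdkn2d, Cdkn1a, Ccnd2, Ccnd3 and Cdk4), and Cdkn1b and Cdk6 did not pass. The background in this comparison was 62.6% of genes called, 33.1% higher and 29.5% lower. Cdkn2d was 1.94-fold lower and Cdkn1a 1.74-fold lower in DAHB+O than in DAHB, while Cdkn2c and Ccne2 were each 1.50-fold higher.

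DAHB+O against NaCl sets the combined treatment beside the control. In DAHB+O, 2 members were higher (Ccnd2 and Cdk6), 6 were lower (Cdkn1b, Ccne2, Cdk4, Cdkn2d, Ccnd3 and Cdkn2c), and Cdkn1a and Ccne1 did not pass, against a background of 74.2% of genes called, 36.5% higher and 37.7% lower. Cdkn1b was 2.85-fold lower and Ccne2 1.79-fold lower, and Ccnd2 was 1.69-fold higher. With quantile normalization, 2 members were higher and 4 lower, because Cdkn2d and Ccnd3 no longer passed. The 3 comparisons share their groups, DAHB being in 2 of them with opposite signs, so they are not independent of each other.

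**Figure D1:**
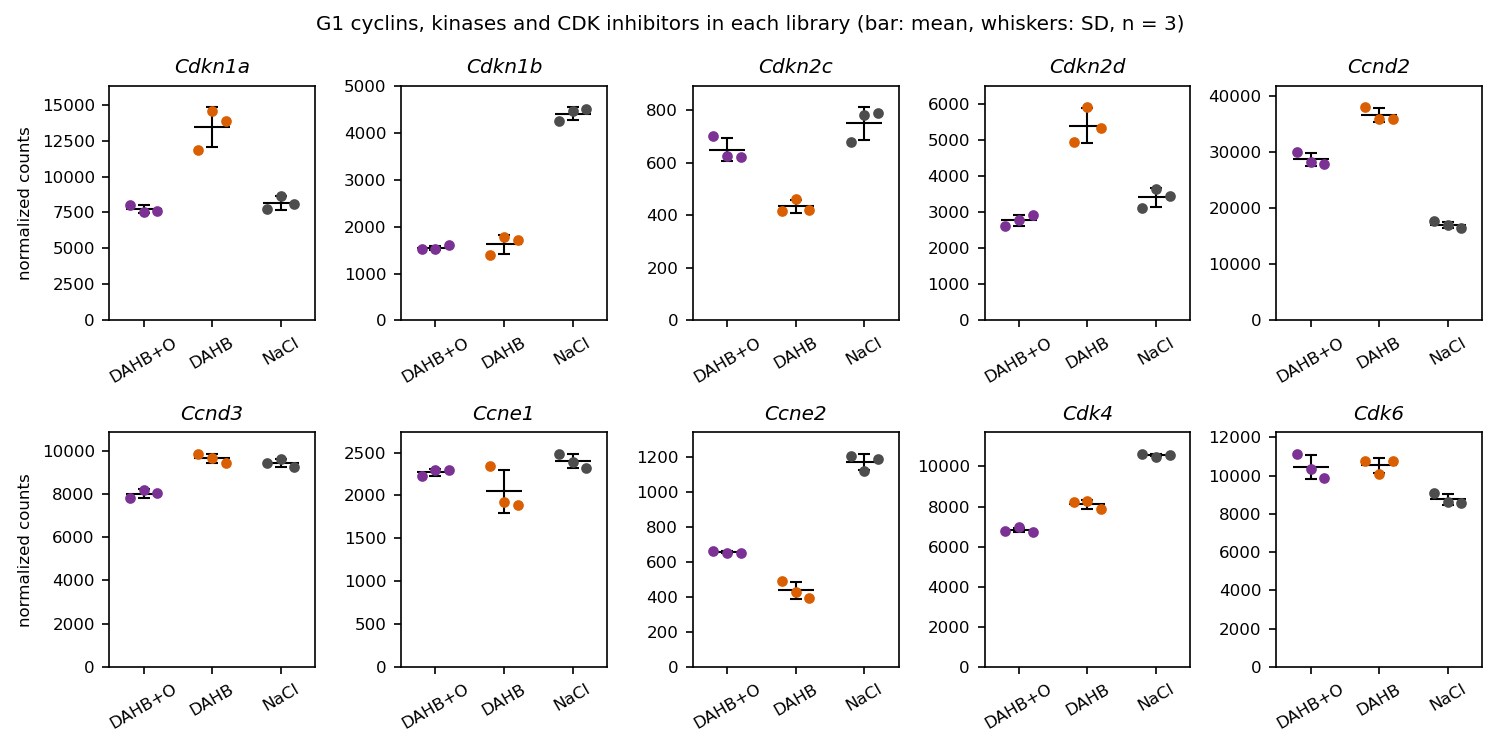
Normalized counts (vertical axes, from 0) of the 10 members in each of the 9 libraries, with 1 panel per gene and the groups DAHB+O, DAHB and NaCl from left to right; dots are libraries, horizontal bars are means of 3 and whiskers are SDs. Cdkn1a and Cdkn2d were highest in the 3 DAHB libraries, Cdkn1b was highest in the 3 NaCl libraries, Cdkn2c and Ccne2 were lowest in the 3 DAHB libraries, and Ccnd2 was lowest in the 3 NaCl libraries.

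Cdkn1a (chr17:29090976-29100727, plus strand, GRCm38, GENCODE vM21) encodes p21, an inhibitor of cyclin-CDK complexes and a classical target of the tumour suppressor p53. It had 8054, 7537 and 7592 normalized counts in the DAHB+O libraries, 11876, 14529 and 13875 in the DAHB libraries and 7717, 8642 and 8081 in the NaCl libraries. Every DAHB library lay above all 6 other libraries, and the DAHB+O and NaCl libraries overlapped. In log2 units the fold change was 0.72 ± 0.063 (SE) in DAHB against NaCl (limma adjusted p = 6.08e-08) and -0.79 ± 0.063 in DAHB+O against DAHB (limma adjusted p = 4.33e-08). Between DAHB+O and NaCl it was -0.075, with a 95% confidence interval of -0.21 to 0.06, and did not pass (limma adjusted p = 0.291). With quantile normalization that last difference had the other sign, 0.13 (limma adjusted p = 0.0686). These values are amounts of messenger RNA relative to all other genes in bulk samples, in which fewer cells of a type and less RNA per cell cannot be told apart.

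Cdkn1a has more than 1 start site in RefSeq, and the window of 300 bases around the upstream one is shown because it holds a p53 element, as 20 bases that match 2 adjacent half-sites of the p53 consensus with at most 1 mismatch. It lies on chr17:29090729-29091028 (GRCm38.p6, plus strand). The capitals mark the element, whose first base is at position -51 from the start.
Cdkn1a: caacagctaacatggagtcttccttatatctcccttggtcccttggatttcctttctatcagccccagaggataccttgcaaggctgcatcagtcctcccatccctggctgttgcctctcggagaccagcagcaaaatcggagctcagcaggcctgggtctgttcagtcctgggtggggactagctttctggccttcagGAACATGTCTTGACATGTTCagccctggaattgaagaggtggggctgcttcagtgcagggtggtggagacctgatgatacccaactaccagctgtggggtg
Such an element was found in 29 of the 32851 promoter windows of the same length, or 0.0883%, on either strand. A match is a description of the letters and shows no binding. The data do not tell which start site the reads of Cdkn1a came from. Trp53, the gene of p53, had 4201 ± 189 normalized counts in DAHB+O, 3615 ± 468 in DAHB and 6191 ± 163 in NaCl (SD, n = 3 each). The amount of p53 protein is not part of these data, and a part of p53 in the level of Cdkn1a was not tested.

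Cdkn1b (chr6:134920401-134925513, plus strand) encodes p27, the other CIP/KIP inhibitor measured. It had 1524, 1533 and 1601 normalized counts in the DAHB+O libraries, 1395, 1774 and 1713 in the DAHB libraries and 4268, 4468 and 4518 in the NaCl libraries. All 6 libraries with DAHB, alone or with oligomycin, lay below all 3 NaCl libraries, and the DAHB+O values lay inside the range of the DAHB values. On the log2 scale Cdkn1b changed by -1.45 ± 0.069 (SE) in DAHB against NaCl (limma adjusted p = 7.22e-11) and -1.51 ± 0.069 in DAHB+O against NaCl (limma adjusted p = 4.28e-11). Between DAHB+O and DAHB it was -0.060, with an interval of -0.21 to 0.09 (limma adjusted p = 0.468). This last value rested on single libraries: it was -0.17 and passed without DAHB replicate 1 (limma adjusted p = 0.00356), and was 0.0059 without DAHB replicate 2 (limma adjusted p = 0.949). Among the fold changes of all genes tested in DAHB against NaCl, Cdkn1b lay at percentile 0.974 and Ccne2 at 1.09, so few genes were lower by more.

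The CIP/KIP inhibitors moved in opposite directions in DAHB. In each library the ratio of Cdkn1a to Cdkn1b, which does not depend on the size factor, was 5.28, 4.92 and 4.74 in DAHB+O, 8.51, 8.19 and 8.10 in DAHB and 1.81, 1.93 and 1.79 in NaCl. No 2 groups overlapped in this ratio. For this and the other pairs, fold values of a mean ratio compare geometric means. The mean ratio was 4.48-fold higher in DAHB than in NaCl, 1.66-fold lower in DAHB+O than in DAHB and 2.70-fold higher in DAHB+O than in NaCl. With 3 libraries against 3 an exact two-sided permutation test cannot go below p = 0.1, which all 3 comparisons reached, and over the 15 ratio tests made the adjusted p was 0.115.

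Cdkn2c (chr4:109660876-109667189, minus strand) encodes p18, an INK4 inhibitor of CDK4 and CDK6. It had 701, 625 and 624 normalized counts in the DAHB+O libraries, 418, 464 and 420.2 in the DAHB libraries and 679, 781 and 790.1 in the NaCl libraries. The 3 DAHB libraries were the lowest of the 9, and DAHB+O overlapped NaCl through its replicate 1. The log2 fold change was -0.79 ± 0.075 (SE) in DAHB against NaCl (limma adjusted p = 1.5e-07) and 0.58 ± 0.075 in DAHB+O against DAHB (limma adjusted p = 7.16e-06). Set against NaCl, DAHB+O gave -0.21 ± 0.075 (limma adjusted p = 0.0216), and this call was lost without any 1 of 4 libraries: the adjusted p was 0.0821 without NaCl replicate 2, 0.0956 without NaCl replicate 3, 0.0803 without DAHB+O replicate 2 and also without DAHB+O replicate 3.

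Cdkn2d (chr9:21288410-21291407, minus strand) encodes p19, the other INK4 inhibitor measured, and moved the opposite way. It had 2630.3, 2781 and 2919.8 normalized counts in the DAHB+O libraries, 4956, 5914 and 5329 in the DAHB libraries and 3128, 3651 and 3453 in the NaCl libraries. No groups overlapped: DAHB was highest, then NaCl, then DAHB+O. Its log2 fold change was 0.66 ± 0.065 (SE) in DAHB against NaCl (limma adjusted p = 2.36e-07), -0.96 ± 0.065 in DAHB+O against DAHB (limma adjusted p = 8.85e-09) and -0.29 ± 0.065 in DAHB+O against NaCl (limma adjusted p = 0.000803). Under quantile normalization the last was -0.13 and did not pass (limma adjusted p = 0.0852).

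Windows around start sites of the INK4 genes are shown side by side. These genes moved in opposite directions, and a link between this and any motif was not tested. A match shows no binding here either. Cdkn2c has more than 1 start site in RefSeq, and the window of the upstream one, chr4:109666707-109667006, is shown. Its downstream window holds no E2F core searched and no GC box. The window of Cdkn2d is chr9:21291160-21291459, and both windows shown are on the minus strand of GRCm38.p6. In Cdkn2c the capitals mark a core of the E2F site, TTCCCGC, at position -25 from the start. In Cdkn2d they mark 5 copies of the GC box, GGGCGG or its reverse complement, the binding motif of Sp1-type factors.
Cdkn2c: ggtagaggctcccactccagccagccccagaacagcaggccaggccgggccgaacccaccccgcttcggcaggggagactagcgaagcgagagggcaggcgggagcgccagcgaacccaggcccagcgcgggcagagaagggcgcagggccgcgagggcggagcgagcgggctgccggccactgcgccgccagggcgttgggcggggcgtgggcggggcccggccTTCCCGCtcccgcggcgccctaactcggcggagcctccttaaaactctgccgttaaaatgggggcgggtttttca
Cdkn2d: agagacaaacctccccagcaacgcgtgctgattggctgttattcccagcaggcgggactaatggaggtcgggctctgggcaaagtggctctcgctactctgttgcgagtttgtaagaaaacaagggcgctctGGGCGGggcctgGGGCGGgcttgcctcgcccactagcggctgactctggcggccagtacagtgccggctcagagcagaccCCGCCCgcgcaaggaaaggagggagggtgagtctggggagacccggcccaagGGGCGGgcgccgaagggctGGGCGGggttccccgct
Of all 32851 windows 4.60% hold TTCCCGC on either strand, and among the 8 members with a window only Cdkn2c holds it. GC boxes are common, in 35.7% of windows, and 5 or more stand in 2.71%. The Cdkn2c window shown also holds 4 GC boxes that do not overlap the E2F core. No window of a member held the other E2F core searched, TTGGCGC.

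Within libraries, the ratio of Cdkn2c to Cdkn2d was 0.267, 0.225 and 0.214 in DAHB+O, 0.0843, 0.0784 and 0.0789 in DAHB and 0.217, 0.214 and 0.229 in NaCl. The DAHB libraries stood apart from the other 6, which overlapped. The mean ratio was 2.73-fold lower in DAHB than in NaCl and 2.90-fold higher in DAHB+O than in DAHB (exact permutation p = 0.1 for each, the smallest possible, adjusted p = 0.115). Between DAHB+O and NaCl the exact permutation p was 0.7, and the log2 difference of 0.090 became -0.0046 without DAHB+O replicate 1.

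Ccnd2 (chr6:127125162-127152193, minus strand) encodes cyclin D2, a D-type cyclin that T cells induce on activation. It had 30022, 28260.3 and 27797 normalized counts in the DAHB+O libraries, 37991, 35872 and 35825 in the DAHB libraries and 17640.5, 16969 and 16453 in the NaCl libraries. The groups did not overlap, with DAHB highest, DAHB+O between and NaCl lowest. Its log2 fold change was 1.10 ± 0.042 (SE) in DAHB against NaCl (limma adjusted p = 6.99e-12), -0.35 ± 0.042 in DAHB+O against DAHB (limma adjusted p = 3.67e-06) and 0.75 ± 0.042 in DAHB+O against NaCl (limma adjusted p = 3.67e-10). Each of these 3 calls held in 17 alternatives that keep the same threshold. When a 2-fold change was required, the call in DAHB against NaCl was kept and the other 2 were lost.

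Ccnd3 (chr17:47505051-47599691, plus strand) encodes cyclin D3. It had 7784, 8196 and 8045 normalized counts in the DAHB+O libraries, 9834, 9669 and 9423 in the DAHB libraries and 9442, 9600.2 and 9242 in the NaCl libraries. DAHB and NaCl overlapped, and all 3 DAHB+O libraries lay below both. The log2 fold change was 0.032 in DAHB against NaCl, with an interval of -0.04 to 0.11 (limma adjusted p = 0.422), and -0.27 ± 0.035 (SE) in DAHB+O against DAHB (limma adjusted p = 9.14e-06). Set against NaCl, DAHB+O gave -0.24 ± 0.035 (limma adjusted p = 2.08e-05). Scaling mattered here: under quantile normalization the DAHB value against NaCl was 0.12 and passed (limma adjusted p = 0.00483), and the DAHB+O value against NaCl was -0.036 and did not (limma adjusted p = 0.339). Bysl, on the opposite strand, shares 361 bases or 4.11% of the exons of Ccnd3, and the sources used here do not give the strand setting of the counting.

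Ccnd2 stood higher beside Ccnd3 in every library with DAHB. The ratio was 3.86, 3.45 and 3.46 in DAHB+O, 3.86, 3.71 and 3.80 in DAHB and 1.87, 1.77 and 1.78 in NaCl. All 6 libraries with DAHB lay above the 3 NaCl libraries, a 2.10-fold higher mean in DAHB than in NaCl and a 1.98-fold higher mean in DAHB+O than in NaCl (exact permutation p = 0.1 for each, adjusted p = 0.115). DAHB+O and DAHB overlapped (exact permutation p = 0.3).

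Ccne1 (chr7:38097984-38107534, minus strand) encodes cyclin E1, a partner of CDK2 at the entry to S phase. It had 2225, 2294 and 2299 normalized counts in the DAHB+O libraries, 2339, 1920.2 and 1891 in the DAHB libraries and 2485, 2389 and 2324 in the NaCl libraries. DAHB replicate 1 lay among the NaCl libraries, while the other 2 DAHB libraries lay below all 7 others. On the log2 scale Ccne1 changed by -0.23 ± 0.065 (SE) in DAHB against NaCl (limma adjusted p = 0.00454), and -0.059 with no call under quantile normalization (limma adjusted p = 0.428). Between DAHB+O and DAHB it was 0.16 ± 0.065 (limma adjusted p = 0.0495). That call was lost in 11 of the 17 alternatives that keep the threshold, with adjusted p of 0.0502 to 0.1995, among them both count tests and leaving out any library other than DAHB replicate 1. Between DAHB+O and NaCl it was -0.078, with an interval of -0.22 to 0.06 (limma adjusted p = 0.292), and 0.088 under quantile normalization.

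Ccne2 (chr4:11191351-11204779, plus strand) encodes cyclin E2, which shares that role. It had 659.7, 652 and 649 normalized counts in the DAHB+O libraries, 491, 425 and 394 in the DAHB libraries and 1205, 1119.8 and 1188 in the NaCl libraries. The groups did not overlap: NaCl was highest, DAHB+O between and DAHB lowest. The log2 fold change was -1.43 ± 0.071 (SE) in DAHB against NaCl (limma adjusted p = 1.15e-10), 0.59 ± 0.071 in DAHB+O against DAHB (limma adjusted p = 4.06e-06) and -0.84 ± 0.071 in DAHB+O against NaCl (limma adjusted p = 4.13e-08). Ints8, on the opposite strand, shares 609 bases or 17.4% of the exons of Ccne2, and without a known strand setting some reads could belong to either gene. The log2 fold change of Ints8 was -0.26 in DAHB against NaCl and 0.19 in DAHB+O against DAHB.

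The ratio of Ccne1 to Ccne2 was 3.37, 3.52 and 3.54 in DAHB+O, 4.77, 4.52 and 4.80 in DAHB and 2.06, 2.13 and 1.96 in NaCl. No groups overlapped. The mean ratio was 2.29-fold higher in DAHB than in NaCl, 1.35-fold lower in DAHB+O than in DAHB and 1.70-fold higher in DAHB+O than in NaCl (exact permutation p = 0.1 for each, adjusted p = 0.115).

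Cdk4 (chr10:127063534-127067920, plus strand) encodes CDK4, a kinase partner of D-type cyclins. It had 6785, 6959 and 6734 normalized counts in the DAHB+O libraries, 8213, 8276 and 7863 in the DAHB libraries and 10628, 10495 and 10569.6 in the NaCl libraries. The groups did not overlap, with NaCl highest and DAHB+O lowest. Its log2 fold change was -0.38 ± 0.034 (SE) in DAHB against NaCl (limma adjusted p = 8.09e-08), -0.25 ± 0.034 in DAHB+O against DAHB (limma adjusted p = 1.36e-05) and -0.63 ± 0.034 in DAHB+O against NaCl (limma adjusted p = 2.66e-10). Tspan31, on the opposite strand, shares 641 bases or 19.7% of the exons of Cdk4. Tspan31 had a log2 fold change of 0.15 in DAHB against NaCl and 0.13 in DAHB+O against NaCl, opposite in sign to Cdk4.

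The window of Cdk4 (chr10:127063285-127063584, GRCm38.p6, plus strand) is shown for its 4 copies of the E-box CACGTG, in capitals, the motif that Myc and related factors bind.
Cdk4: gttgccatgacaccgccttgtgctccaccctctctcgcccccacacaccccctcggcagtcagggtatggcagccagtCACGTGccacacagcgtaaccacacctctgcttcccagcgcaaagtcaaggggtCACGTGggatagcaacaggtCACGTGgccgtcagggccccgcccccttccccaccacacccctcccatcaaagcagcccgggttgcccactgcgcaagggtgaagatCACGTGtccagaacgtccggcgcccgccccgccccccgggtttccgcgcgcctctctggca
This E-box, whose reverse complement is itself, was found in 7.15% of all windows, and 4 or more copies in 8 of the 32851. The windows of Cdk6 and of the downstream start of Cdkn2c held 1 copy each. Myc had 14954 ± 579 normalized counts in DAHB+O, 14855 ± 2085 in DAHB and 11477 ± 642 in NaCl (SD, n = 3 each). It was higher in DAHB and in DAHB+O than in NaCl, and did not pass in DAHB+O against DAHB (limma adjusted p = 0.845). A link between Myc and the level of Cdk4 was not tested. Windows were given for 8 of the 10 members, not for Ccnd2 and Ccne2.

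Cdk6 (chr5:3341485-3531008, plus strand) encodes CDK6, the other kinase partner of D-type cyclins. It had 11142, 10332 and 9875 normalized counts in the DAHB+O libraries, 10782, 10080.2 and 10771 in the DAHB libraries and 9089.6, 8639.6 and 8548 in the NaCl libraries. All 6 libraries with DAHB lay above the 3 NaCl libraries, and DAHB+O and DAHB overlapped. The log2 fold change was 0.27 ± 0.046 (SE) in DAHB against NaCl (limma adjusted p = 9.06e-05) and 0.25 ± 0.046 in DAHB+O against NaCl (limma adjusted p = 0.00015). Between DAHB+O and DAHB it was -0.014, with an interval of -0.11 to 0.08 (limma adjusted p = 0.808), but 0.12 with a call under quantile normalization (limma adjusted p = 0.0412).

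By count, Cdk6 stood above Cdk4 in the 6 libraries with DAHB and below it in NaCl. The ratio of Cdk6 to Cdk4 was 1.64, 1.48 and 1.47 in DAHB+O, 1.31, 1.22 and 1.37 in DAHB and 0.855, 0.823 and 0.809 in NaCl, with no overlap between groups. The mean ratio was 1.57-fold higher in DAHB than in NaCl, 1.18-fold higher in DAHB+O than in DAHB and 1.84-fold higher in DAHB+O than in NaCl (exact permutation p = 0.1 for each, adjusted p = 0.115). Since Cdk6 has a much longer transcript, this ratio of counts is no ratio of molecules.

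**Figure D2:**
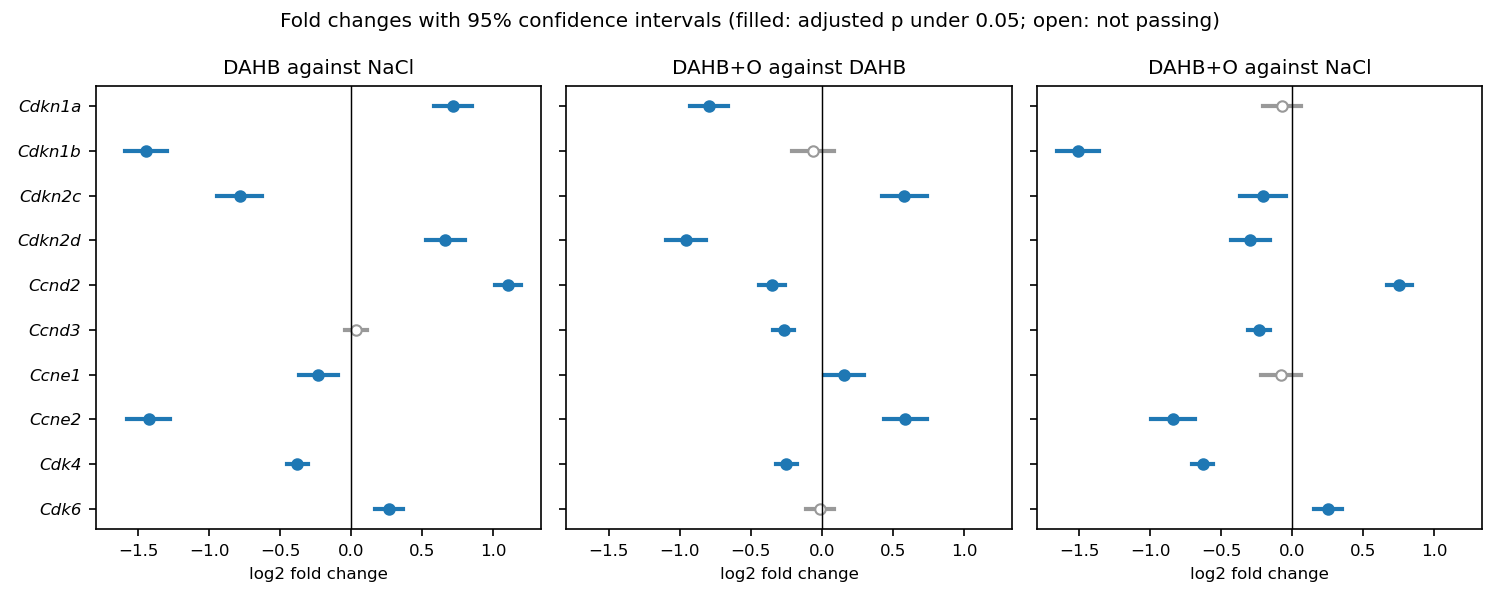
Log2 fold change (horizontal axes) of each member in the 3 comparisons, with DAHB against NaCl on the left, DAHB+O against DAHB in the middle and DAHB+O against NaCl on the right; dots are limma estimates, lines are 95% confidence intervals, and open dots did not pass an adjusted p of 0.05. Cdkn1b and Ccne2 lie farthest to the left at -1.45 and -1.43 in the first panel, and Cdkn2d at -0.96 in the middle panel.

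**Figure D3:**
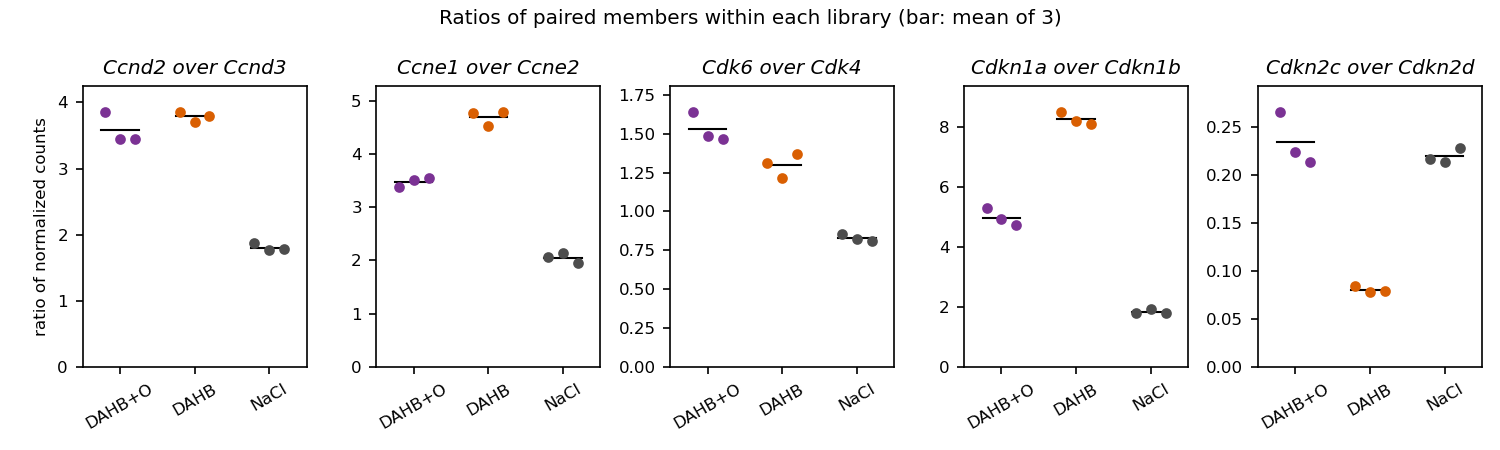
Ratio of normalized counts (vertical axes, from 0) for 5 pairs of members of the same kind in each library, with the groups DAHB+O, DAHB and NaCl from left to right; dots are libraries and bars are means of 3. Cdkn1a over Cdkn1b stands at 4.98, 8.27 and 1.84 on average in these groups, and Cdkn2c over Cdkn2d at 0.235, 0.0805 and 0.220.

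Of the 10 members, 8 did not overlap between DAHB and NaCl, 7 between DAHB+O and DAHB, and 8 between DAHB+O and NaCl, beside 75.6%, 67.6% and 78.7% of all genes tested. Ccne1 did not overlap in DAHB+O against NaCl although its test did not pass. The spread between libraries of a group was a coefficient of variation of 0.630% to 12.5%, the widest for Cdkn1b in DAHB.

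Levels of different genes were compared per kilobase of the longest principal transcript. In NaCl the order was Cdk4 at 5146 ± 32.4 normalized counts per kilobase (SD, n = 3, as for all these levels), then Ccnd3 at 4462 ± 84.9, Cdkn1a at 3917 ± 224, Ccnd2 at 2689 ± 94.1, Cdkn2d at 2397 ± 185, Ccne1 at 1199.7 ± 40.5, Cdkn1b at 971 ± 29.0, Cdk6 at 760.0 ± 25.2, Ccne2 at 389.5 ± 15.0 and Cdkn2c at 304 ± 24.8. No neighbours in that order overlapped. In DAHB the inhibitor Cdkn1a led at 6455 ± 664 per kilobase, overlapping Ccnd2 at 5776 ± 195, and Cdk4 at 3954 ± 109 overlapped Cdkn2d at 3794 ± 339. Cdkn1b stood eighth in DAHB at 358 ± 44.7, and Ccne2 last at 145 ± 16.4. In DAHB+O Ccnd2 led at 4533 ± 185 per kilobase, and Ccnd3 at 3790.1 ± 98.6 overlapped Cdkn1a at 3715 ± 137. Cdkn2c and Ccne2 were the lowest there, at 263 ± 18.0 and 217 ± 1.83. The order depends on the length used: over the union of all exons Ccnd3 stood at rank 5 in every group, and Ccnd2 led Cdkn1a in DAHB.

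Genes with the pattern most like a member were sought for the 3 members with the widest range of group means, by the distance between the 3 centred log2 group means among 10671 genes. Nearest to Cdkn1b were Utp14b, Ptpn7 and Itgae, at distances of 0.025, 0.040 and 0.045. Ptpn7, for example, had 1725 ± 63.6 normalized counts in DAHB+O, 1743 ± 164 in DAHB and 4910 ± 338 in NaCl (SD, n = 3 each). Nearest to Ccne2 were Kif2c, Cenpl and Zfp629, at 0.0080, 0.020 and 0.025, and Kif2c had 1698 ± 86.2 in DAHB+O, 1136 ± 72.6 in DAHB and 3061 ± 94.6 in NaCl. Nearest to Ccnd2 were Sco1, Gpr160 and Capn5, at 0.021, 0.031 and 0.033. Within a distance of 0.2 lay 17 genes for Cdkn1b, 76 for Ccne2 and 128 for Ccnd2.

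Genes that act around the members were read as lists. Their counts stand beside the shares of all genes tested that were called. These shares were 35.5% higher and 38.4% lower in DAHB against NaCl, and 33.1% and 29.5% in DAHB+O against DAHB. In DAHB+O against NaCl they were 36.5% and 37.7%. Of 13 RB and E2F genes, 1 was higher, 9 were lower and 3 did not pass in DAHB against NaCl, with a median log2 fold change of -0.31 beside -0.017 over all genes tested. E2f8, an E2F family repressor, was 2.41-fold lower, with 583 ± 80.7 normalized counts in DAHB and 1403 ± 31.8 in NaCl. Tfdp2, a dimer partner of E2F proteins, was 1.48-fold lower and E2f1, an activator, 1.38-fold lower, while Rbl1, which encodes the pocket protein p107, was 1.20-fold higher. With oligomycin added to DAHB, 9 were higher, 1 was lower and 3 did not pass (median 0.28 beside 0.016). Tfdp1, the other dimer partner, was 1.69-fold higher there, with 8281 ± 91.0 in DAHB+O and 4901 ± 388 in DAHB, and Rbl2, which encodes the pocket protein p130, was the 1 lower gene, by 1.55-fold. Set against NaCl, DAHB+O had 6 higher, 6 lower and 1 that did not pass, and the median of -0.12, beside -0.014 over all genes tested, turned to 0.022 under quantile normalization. Rb1 itself did not pass in DAHB against NaCl, with 2959 ± 179.5 in DAHB and 3099 ± 14.0 in NaCl.

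The targets that E2F switches on for DNA synthesis moved as a block. All 22 were lower in DAHB than in NaCl (median -1.05), all 22 were higher in DAHB+O than in DAHB (median 0.62, with 21 passing under quantile normalization), and in DAHB+O against NaCl 18 were lower, 2 higher and 2 did not pass (median -0.41). Under quantile normalization that last comparison had 13 lower, 3 higher and 6 that did not pass (median -0.22). Mcm5, a subunit of the replicative helicase, had 8180.2 ± 140.3 normalized counts in DAHB+O, 5067 ± 496 in DAHB and 13664 ± 323 in NaCl. Cdc45, which joins that helicase, had 2094 ± 39.7 in DAHB+O, 1073 ± 105 in DAHB and 2883 ± 114 in NaCl. The 2 genes above NaCl in DAHB+O were Pola1, the catalytic subunit of DNA polymerase alpha, and Chaf1b, a histone chaperone subunit. Of 16 mitosis markers, 16 were lower in DAHB than in NaCl (median -1.29), 14 were higher and 1 lower in DAHB+O than in DAHB (median 0.30), and 15 were lower in DAHB+O than in NaCl (median -0.87). Cdc20, an activator of the anaphase-promoting complex, was 4.07-fold lower in DAHB than in NaCl, and Cenpa, the centromeric histone, was the 1 marker lower in DAHB+O than in DAHB, by 1.27-fold. The summed E2F targets came to 122216 to 122902 normalized counts in DAHB+O, 79452 to 94868 in DAHB and 166511 to 172239.9 in NaCl, with no overlap, the order also seen for Ccne2. The share of cells in each phase of the cycle was not measured, and its part in these values was not tested.

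Of 12 tested genes among other cyclins, kinases, inhibitors and the phosphatase of S phase entry, 5 were higher and 7 lower in DAHB than in NaCl (median -0.32). Ccna2 (cyclin A2) was 2.87-fold lower, Cdc25a, the phosphatase that activates CDK2, 1.94-fold lower and Cdk2 1.84-fold lower. Of the 5 higher genes, 3 were inhibitors that were scarce in NaCl. Cdkn1c, which encodes the CIP/KIP inhibitor p57, had 88.6 ± 8.52 normalized counts in DAHB+O, 75.0 ± 3.35 in DAHB and 8.72 ± 1.62 in NaCl, and Cdkn2a, which encodes p16 and ARF, had 26.7 ± 2.14 in DAHB+O, 25.0 ± 2.55 in DAHB and 3.28 ± 1.56 in NaCl. Cdkn2b, which encodes p15, had 16.8 ± 1.67 in DAHB+O, 14.4 ± 2.38 in DAHB and 2.30 ± 1.53 in NaCl. Ccnd1 (cyclin D1), scarce in T cells, had 82.2 ± 9.77 in DAHB+O, 43.0 ± 2.91 in DAHB and 18.4 ± 3.23 in NaCl. These inhibitors were still far below the members in count. Oligomycin with DAHB, set against DAHB, left 6 higher, 1 lower and 5 that did not pass (median 0.23), a split of 5, 2 and 5 under quantile normalization. Beside NaCl, 5 were higher, 6 were lower and 1 did not pass in DAHB+O, with a median of -0.062 that became 0.10 under quantile normalization.

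Ubiquitin ligase subunits destroy cyclins and inhibitors at fixed points of the cycle. Of 14, 1 was higher, 10 were lower and 3 did not pass in DAHB against NaCl (median -0.43), and quantile normalization gave 3 higher and 8 lower. Skp2, which targets p27, was 2.03-fold lower in DAHB, with 269 ± 22.9 normalized counts in DAHB and 547 ± 96.4 in NaCl, and the scaffold Cul1 was 1.68-fold lower. Fbxw7, which targets cyclin E, was the 1 higher gene, by 1.32-fold. In DAHB+O against DAHB 5 were higher, 4 lower and 5 did not pass (median 0.069). Dtl, a substrate receptor for p21 in S phase, was 2.17-fold higher in that comparison, with 3945 ± 113 in DAHB+O, 1821 ± 189 in DAHB and 3944 ± 167 in NaCl. In DAHB+O against NaCl 3 were higher and 8 lower (median -0.29), or 6 and 8 under quantile normalization, and Skp2 was 1.85-fold lower.

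p53 and its targets were read beside Cdkn1a. Of 23 tested, 6 were higher, 11 lower and 6 did not pass in DAHB against NaCl (median -0.094), beside 35.5% higher and 38.4% lower of all genes. In DAHB+O against DAHB 14 were higher, 5 lower and 4 did not pass (median 0.29), beside 33.1% higher and 29.5% lower of all genes. Cdkn1a was lower in that comparison, and a part of p53 in this was not tested. Plk2 had 225 ± 33.0 normalized counts in DAHB+O, 70.2 ± 7.07 in DAHB and 368 ± 42.5 in NaCl, and Bbc3, which encodes the death protein PUMA, had 733 ± 25.1 in DAHB+O, 404 ± 35.6 in DAHB and 746 ± 16.2 in NaCl. Sesn2, a stress gene that ATF4 also induces, had 1984 ± 256 in DAHB+O, 758 ± 48.5 in DAHB and 809 ± 37.5 in NaCl. The 6 genes higher in DAHB than in NaCl, as Cdkn1a was, were Rrm2b, Zmat3, Fas, Pmaip1, Polk and Mdm2. The 5 genes lower in DAHB+O than in DAHB, as Cdkn1a was, were Btg2, Ddit4, Polk, Sesn1 and Perp. Btg2 had 2458 ± 184 in DAHB+O, 5639 ± 537 in DAHB and 7607 ± 331 in NaCl. In DAHB+O against NaCl 11 were higher, 8 lower and 4 did not pass (median 0.080), and quantile normalization gave 13 and 6.

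Quiescence factors of T cells went both ways, as did all genes tested (35.5% higher and 38.4% lower in DAHB against NaCl). Of 14, 6 were higher, 5 lower and 3 did not pass in DAHB against NaCl, with a median of -0.0031 that was 0.017 with TMM rescaling and 0.082 with quantile normalization. Klf2, a transcription factor of resting T cells, was 2.71-fold higher in DAHB, with 1002 ± 98.7 normalized counts in DAHB and 369.9 ± 22.9 in NaCl. Btg1, an antiproliferative factor, was 1.79-fold higher. The 5 lower genes were Slfn2, Foxp1, Klf4, Tob2 and Tob1. Slfn2 had 1561 ± 47.7 in DAHB+O, 2552 ± 236 in DAHB and 4256 ± 144 in NaCl, and Klf4 was 2.18-fold lower in DAHB than in NaCl. Foxo1, a transcription factor known to raise Cdkn1b, had 9285 ± 547 in DAHB+O, 15115 ± 964 in DAHB and 9689 ± 432 in NaCl. It was higher in DAHB than in NaCl, and did not pass in DAHB+O against NaCl (limma adjusted p = 0.2995). A link between Foxo1 and the level of Cdkn1b was not tested. With oligomycin added to DAHB, 3 were higher, 8 lower and 3 did not pass (median -0.26). Against NaCl, in DAHB+O 3 were higher, 7 lower and 4 did not pass (median -0.13), or 6 higher and 7 lower under quantile normalization.

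Of 15 growth-signal regulators of D cyclins, 5 were higher, 5 lower and 5 did not pass in DAHB against NaCl (median 0.049). With oligomycin added, 1 was higher, 6 lower and 8 did not pass (median -0.075), with 2 higher under quantile normalization. Jun, an AP-1 subunit, had 945 ± 42.5 normalized counts in DAHB+O, 2751 ± 146 in DAHB and 1858 ± 84.4 in NaCl. Stat5a, a mediator of interleukin-2 signals, had 5096 ± 129.9 in DAHB+O, 8730.2 ± 348 in DAHB and 7376 ± 189 in NaCl. Its paralogue Stat5b had 7301 ± 97.2 in DAHB+O, 10361 ± 811 in DAHB and 12538 ± 239 in NaCl. In DAHB against NaCl, Stat5a was thus higher and Stat5b lower. Stat3 had 16437 ± 542 in DAHB+O, 33031 ± 1345 in DAHB and 33388 ± 488 in NaCl. In DAHB+O against NaCl 3 were higher, 9 lower and 3 did not pass (median -0.22).

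**Figure D4:**
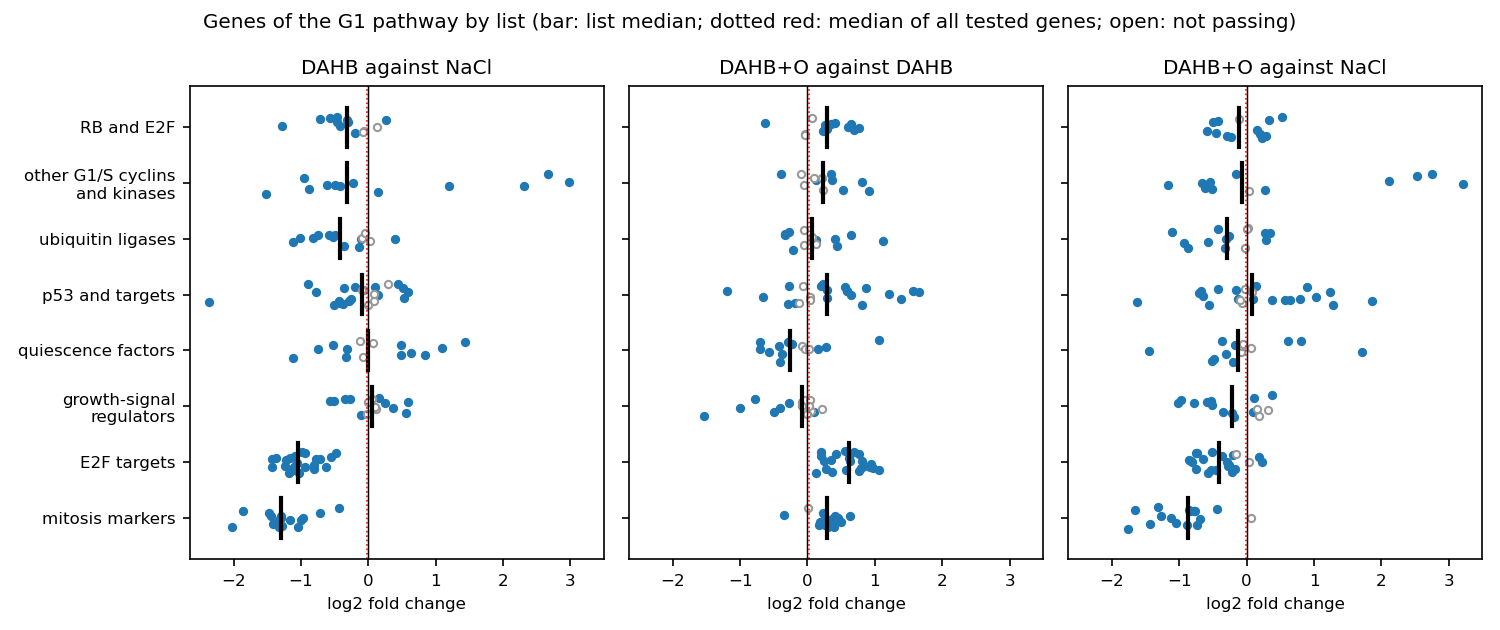
Log2 fold change (horizontal axes) of the tested genes of 8 lists around the members, with DAHB against NaCl on the left, DAHB+O against DAHB in the middle and DAHB+O against NaCl on the right; dots are genes (open where the adjusted p was not under 0.05), black bars are list medians and the dotted line is the median of all genes tested. The 22 E2F targets lie left of 0 in the first panel and right of 0 in the middle panel, with medians of -1.05 and 0.62.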

How the data were processed

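The 9 libraries, 3 per group, held poly(A) RNA. The values are a signal that the authors deposited as normalized counts: read counts divided by a size factor per library, as the values show, since 100.0% of them in each column were whole multiples of 1 step, within 1e-06 reads. Trim Galore 0.4.5, STAR 2.4, Picard, HTSeq 0.9.1, DESeq2 and the build mm10 are named, per the submitters' processing notes; the sources used here do not give the annotation or strand used in counting. The table held 16344 genes, 1 blank cell (Slc7a5) and 21 gene labels made only of digits, which are not named here.

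Values were taken to log2 after adding 1, so fold changes of scarce genes are understated. Genes with a mean of at least 10 were tested with limma 3.58.1 (R 4.3.3) in 1 fit of 9 libraries, with a variance trend and no block, two-sided, with Benjamini-Hochberg adjustment. Fold values of genes are ratios of group means. Fold values of member ratios come from the difference between group means of the log2 ratio, so they compare geometric means. Ratios of members were tested by exact permutation. The test was checked on simulated data. The fits were repeated with quantile normalization or TMM rescaling, with a pseudocount of 0.5 or 10, with a minimum mean of 50 or none, with robust variances, with the replicate number as a block, on the 6 libraries of a comparison, with 1 library left out, with a 2-fold change required, and, on recovered reads, with edgeR 4.0.16 and DESeq2 1.42.0. On recovered reads edgeR called 5333 genes higher and 5173 lower in DAHB against NaCl, 4627 and 4417 in DAHB+O against DAHB, and 5373 and 5188 in DAHB+O against NaCl.

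The members and lists were chosen with earlier results of these data known. All members are named; of each list, the genes with the smallest p in a comparison, up to 4, or those that a small count needs. Trp53, Foxo1, Myc, Stat3, Skp2, Rb1 and some other listed genes shown beside a member were chosen after their values were seen, as was the principal transcript as a length. Gene positions and lengths come from GENCODE vM21 and windows of 250 bases before to 50 after a start from RefSeq, both on GRCm38. Motifs searched were both E2F cores, the E-box, the GC box, CCAAT, forkhead, AP-1, STAT and p53 elements, on both strands.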

Additional observations from a re-analysis of the deposited data

How the results depend on the processing

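Of 135 recomputed ratio values, 134 kept their direction and lay within 1 SD between libraries of the main value, with no threshold applied. Of 510 member fold changes recomputed under the alternatives that keep the threshold, all but a required change of 2-fold, 483 kept their direction and their side of the threshold and 27 did not. That requirement moved the counts most: in DAHB against NaCl it left 1 member higher and 2 lower, with 2085 and 571 genes in all; in DAHB+O against DAHB 0 and 0 members, with 397 and 866 genes; in DAHB+O against NaCl 0 and 1 member, with 1980 and 858 genes. That alternative removes smaller changes by construction. Under quantile normalization the sign turned for Cdk6 in DAHB+O against DAHB (0.12) and, without a call, for Cdkn1a (0.13) and Ccne1 (0.088) in DAHB+O against NaCl. Leaving out 1 library at a time, the small differences between DAHB+O and DAHB ranged from -0.061 to 0.026 for Cdk6, positive without DAHB replicate 1 (0.0024), DAHB replicate 3 (0.0017) or DAHB+O replicate 3 (0.026), and from -0.17 to 0.0059 for Cdkn1b, positive without DAHB replicate 2. The log2 ratio of Cdkn2c to Cdkn2d in DAHB+O against NaCl ranged from -0.0046, without DAHB+O replicate 1, to 0.15. The causes of these shifts were not tested. Same-numbered libraries of different groups correlated at 0.027 to 0.16 in their deviations, above 0.1 in 2 of 9 pairs, and different-numbered ones at -0.11 to 0.042. Each library correlated best with its own number in 18 of 18 checks, so same-numbered libraries were slightly more alike. These checks are not independent of each other. Each library was centred on the mean of its own group, and each pair of groups was read in both directions. The labels state no pairing, and the main tests used none. With the replicate number as a block, 4 members were higher and 5 lower in DAHB against NaCl, 3 and 5 in DAHB+O against DAHB and 2 and 6 in DAHB+O against NaCl, the same counts as without it. With 3 libraries per group, a small difference whose interval includes 0 was not detectable rather than absent.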

Other observations

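Within the groups, the members did not vary in the same library order. In DAHB and in NaCl, replicate 1 held the lowest of the 3 values for all 4 inhibitors (Cdkn1a, Cdkn1b, Cdkn2c and Cdkn2d) and the highest for 5 of the 6 cyclin and kinase genes, which were Ccnd2, Ccne1, Ccne2 and Cdk6 in both groups, with Ccnd3 in DAHB and Cdk4 in NaCl. In DAHB+O, replicate 1 was lowest for Cdkn1b and Cdkn2d and highest for Cdkn1a and Cdkn2c. The sum of the 22 E2F targets was 94868, 88368 and 79452 normalized counts in DAHB replicates 1, 2 and 3, and DAHB replicate 1 also had the highest Ccne2 of its group, at 491. This pattern was noticed after the values were seen, and neither its size against chance nor its source was tested.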
